A study of Mus musculus with 3 samples.

Results

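The clustered protocadherin genes were taken as the 930 bins of 1 kb between 37080001 and 38010000 of mouse chromosome 18 in the mm9 assembly, an interval chosen to hold the alpha, beta and gamma arrays. These bins were set against 2557590 bins of 1 kb on chromosomes 1 to 19 and X, and against the 500 kb on each side, which gave 500 bins to the left (36580001 to 37080000) and 500 to the right (38010001 to 38510000). The study precipitated chromatin of mouse embryonic stem (ES) cells of the C57BL/6 strain, kept without feeder cells in medium with ESGRO, with 3 antibodies, which recognise TET2, OGT or a serine of histone H2B that carries N-acetylglucosamine (H2B S112GlcNAc). Each antibody had 1 library, and no treated, mutant or input sample was used here. The TET2 antibody was made in house and the OGT antibody was bought from Novus. The ES cell identity could not be checked, since the files hold no expression values. With 1 library per antibody there are no replicates, so each difference describes these libraries, and the 95% intervals cover counting error alone.

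The clustered protocadherins are adhesion proteins of the cell surface that give neurons individual identities. Each variable exon of the alpha and gamma arrays has a promoter of its own and is spliced to constant exons shared within the array, while the beta genes lack shared constant exons. Promoter choice is linked to CTCF binding, distal enhancers and DNA methylation of the CpG-rich variable exons. TET2 oxidises 5-methylcytosine, OGT attaches N-acetylglucosamine to proteins and binds TET2, and histone H2B is among the proteins that OGT modifies.

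In the RefSeq gene table, which is of the GRCm38.p6 assembly and gave names and gene order alone, the alpha array has 14 named genes in a row from Pcdha1 to Pcdhac2, the beta array 22 from Pcdhb1 to Pcdhb22 and the gamma array 21 from Pcdhga1 to Pcdhgc5. Gene coordinates of mm9 were not used here. Positions are therefore given by coordinate, no high bin is assigned to a promoter, CpG island, constant exon or enhancer, and no sequence is shown.

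The libraries held 3832237 TET2, 2179445 OGT and 4647963 H2B S112GlcNAc reads. Read ends that coincided in position and strand were taken as 1 and moved 100 bp towards the fragment centre, which gave library means of 1.29, 0.734 and 1.57 positions per kb. In the protocadherin interval, repeats made up 5.56% of TET2 reads (95% interval 4.48 to 6.81), 5.45% of OGT reads (3.98 to 7.24) and 4.63% of H2B S112GlcNAc reads (3.70 to 5.71), and no position held more than 3 reads. Over chromosomes 1 to 19 and X the repeats were 13.9%, 13.8% and 13.4%. No bin of the interval was among the 1014 extreme bins, which lie in the top 0.1% of every library by count, and 1 bin of the flanks was.

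As a whole the protocadherin interval was slightly denser than the library mean and less dense than its surroundings, in each of the 3 libraries. TET2 had 1478 positions, which is 1.23 times its library mean (1.17 to 1.30). OGT had 764 positions, or 1.12 times its mean (1.04 to 1.20). H2B S112GlcNAc had 1689 positions, or 1.15 times its mean (1.10 to 1.21). With every read kept the values were smaller, at 1.12 for TET2, 1.02 for OGT (0.951 to 1.09) and 1.05 for H2B S112GlcNAc (1.0 to 1.10), and the OGT interval then included 1.

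Per kb, the interval over both flanks together gave 0.779 for TET2 (0.728 to 0.833), 0.736 for OGT (0.671 to 0.808) and 0.781 for H2B S112GlcNAc (0.733 to 0.832). The right flank accounted for most of this. Against the right flank the ratios were 0.659 (0.610 to 0.712), 0.638 (0.574 to 0.709) and 0.687 (0.639 to 0.739). Against the left flank they were 0.953 for TET2 (0.875 to 1.04), whose interval includes 1, 0.870 for OGT (0.775 to 0.978) and 0.905 for H2B S112GlcNAc (0.837 to 0.980). Among 2715 tiles of 930 kb across the genome, the interval was denser than 74.5% of tiles in TET2, 68.1% in OGT and 69.9% in H2B S112GlcNAc.

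The density was uneven along the interval, and the 3 libraries shared its shape over 10 stretches of 93 kb. Both ends were dense and the part after the first stretch was sparse. The first stretch, 37080001 to 37173000, stood at 1.62 times the library mean for TET2 (1.4 to 1.86), 1.67 for OGT (1.38 to 2.01) and 1.59 for H2B S112GlcNAc (1.4 to 1.81). The second, 37173001 to 37266000, stood at 0.651 (0.514 to 0.812), 0.762 (0.569 to 0.999) and 0.807 (0.668 to 0.966). The fourth, 37359001 to 37452000, was at 0.818, 0.630 and 0.615 and is the one stretch without a bin at least 4-fold over the mean in any library. From the fifth to the eighth stretch the values lay between 0.909 and 1.35. The last stretch, 37917001 to 38010000, was at 1.84 for TET2 (1.60 to 2.09), 1.87 for OGT (1.56 to 2.23) and 1.67 for H2B S112GlcNAc (1.47 to 1.89).

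**Figure D1:**
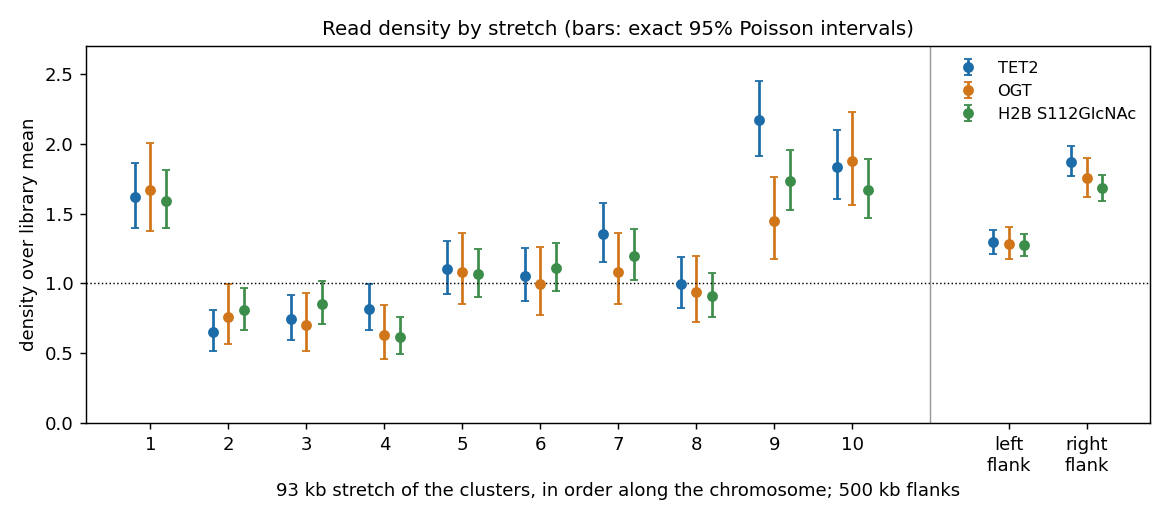
Density of distinct positions over the library mean (y axis) in the 10 stretches of 93 kb of the protocadherin interval, in order along the chromosome, and in both 500 kb flanks (x axis). Points are libraries, bars are exact 95% Poisson intervals and the dotted line is the library mean. All 3 libraries are high in stretches 1, 9 and 10 and below the mean in stretches 2 to 4, and TET2 stands above OGT in stretch 9.

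The interval held more high bins than the genome at large, about as many as its flanks, and on a lower floor. A bin was called high with at least 4 positions and at least 4 times the library mean, which asks for 6 TET2, 4 OGT or 7 H2B S112GlcNAc positions. By this rule 48 of 930 bins were high for TET2, 5.16% (3.83 to 6.79), against 5.50% of flank bins (4.17 to 7.10) and 2.32% of all bins. For OGT 36 bins were high, 3.87% (2.73 to 5.32), against 4.20% of flank bins and 2.11% of all bins. For H2B S112GlcNAc 39 bins were high, 4.19% (3.0 to 5.69), against 3.90% of flank bins and 1.65% of all bins. The 4 positions asked of the OGT library are 5.45-fold over its mean, and when that fold was asked of each library (a setting chosen after seeing the data) TET2 had 25 high bins, 2.69% of the interval against 2.1% of the flanks and 0.96% of all bins. H2B S112GlcNAc then had 21, 2.26% of the interval (1.4 to 3.43) against 0.600% of the flanks (0.220 to 1.30) and 0.559% of all bins.

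The 850 bins that were high in no library were at 0.887 (TET2), 0.811 (OGT) and 0.869 (H2B S112GlcNAc) times the library mean. The 887 such bins of the flanks were at 1.27, 1.21 and 1.27. Between high bins the interval was therefore sparser than its flanks, with a ratio of 0.700 for TET2 (0.644 to 0.759), 0.672 for OGT (0.600 to 0.752) and 0.683 for H2B S112GlcNAc (0.634 to 0.736). The high bins held 27.3% of the TET2 positions of the interval, against 22.5% in the flanks and 16.5% over all bins. For OGT the shares were 23.0%, 19.1% and 16.3%, and for H2B S112GlcNAc 21.0%, 13.2% and 10.6%. Bins without a position in any library made up 10.9% of the interval, 4.10% of the flanks and 12.2% of all bins, and no more than 2 such bins lay side by side.

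**Figure D2:**
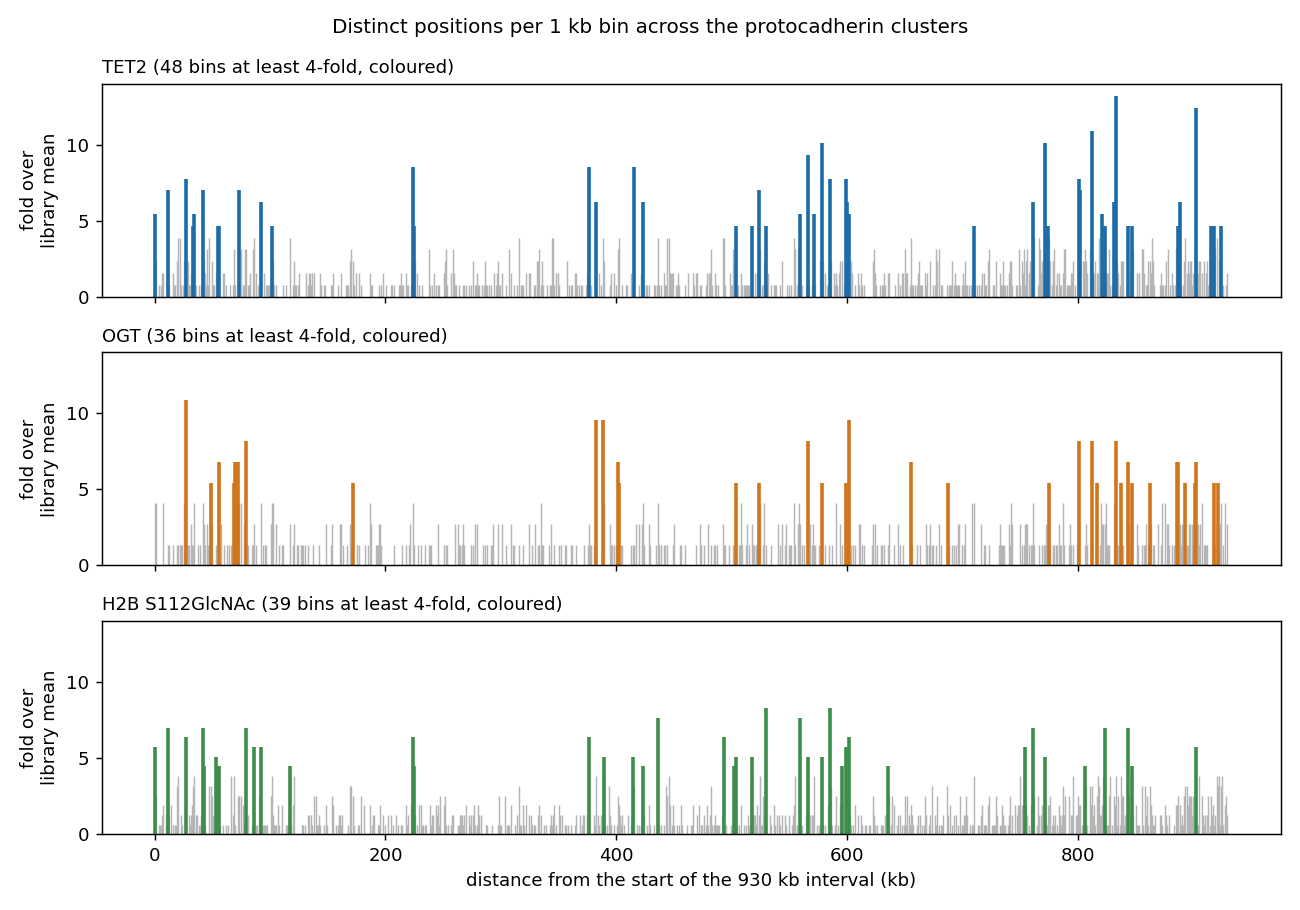
Fold over the library mean in each 1 kb bin (y axis, 1 line per bin) against distance from the start of the 930 kb interval (x axis, kb), with 1 panel per library. Coloured lines are the 48 TET2, 36 OGT and 39 H2B S112GlcNAc bins called high, and grey lines are the other bins. The high bins are crowded at both ends and in the middle, and few lie between about 120 and 370 kb.

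In any library 80 bins were high, 8.60% of the interval (6.88 to 10.6), against 11.3% of the flanks and 4.6% of all bins. In all 3 libraries 10 were high, 1.08% (0.517 to 1.97), against 0.400% of the flanks (0.109 to 1.02) and 0.346% of all bins. A further 23 were high in a pair of libraries and 47 in a single one (16 TET2, 18 OGT and 13 H2B S112GlcNAc). Of the 10 shared bins 2 lay at the left end, 5 in the middle and 3 at the right end, and none lay between those starting at 37135001 and 37583001. In the first stretch, bin 37107001 to 37108000 held 10 TET2, 8 OGT and 10 H2B S112GlcNAc positions, and its OGT count was the highest of the interval, at 10.9-fold (4.70 to 21.5). Bin 37135001 to 37136000 held 6, 5 and 7 positions.

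In the middle of the interval, bin 37583001 to 37584000 held 6 TET2, 4 OGT and 8 H2B S112GlcNAc positions. Bin 37646001 to 37647000 held 12, 6 and 8, bin 37658001 to 37659000 held 13, 4 and 8, and bin 37679001 to 37680000 held 10, 4 and 9. Bin 37681001 to 37682000 held 7, 7 and 10. These 5 bins lie within 99 kb, and 4 of them within 36 kb.

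Towards the right end, bin 37923001 to 37924000 held 6 TET2, 5 OGT and 11 H2B S112GlcNAc positions, and bin 37927001 to 37928000 held 6, 4 and 7. Bin 37982001 to 37983000 held 16, 5 and 9 positions, and there TET2 reached 12.4-fold over its mean (7.10 to 20.2). Its OGT fold was 6.81 (2.21 to 15.9) and its H2B S112GlcNAc fold 5.72 (2.62 to 10.9). Counts of this size leave wide intervals, so the 10 bins cannot be ranked among themselves.

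The highest TET2 bins lay in the right part of the interval. Bin 37913001 to 37914000 led with 17 TET2, 6 OGT and 6 H2B S112GlcNAc positions, a TET2 fold of 13.2 (7.68 to 21.1). It was followed by the shared bin at 37982001, by bin 37892001 to 37893000 with 14, 6 and 5 positions, and by bin 37851001 to 37852000 with 13, 1 and 8, level with the shared bin at 37658001. The H2B S112GlcNAc library had its highest bins elsewhere. Bins 37609001 to 37610000 and 37665001 to 37666000 held 13 H2B S112GlcNAc positions each, a fold of 8.27 (4.40 to 14.1), beside 6 and 10 TET2 positions and 1 and 0 OGT positions.

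Further bins made up the top 5 of H2B S112GlcNAc, with 12 positions at 37516001 to 37517000, 12 at 37639001 to 37640000 and 11 at 37091001 to 37092000. TET2 held 5, 7 and 9 positions in them, and OGT 3, 2 and 1. The bin at 37091001 is 1 of 6 with 11 H2B S112GlcNAc positions, and the other 5 held 4 to 9 TET2 and 2 to 6 OGT positions. For OGT, bins 37462001 to 37463000 and 37468001 to 37469000 followed its leading bin with 7 positions each, as did the shared bin at 37681001, and bin 37159001 to 37160000 held 6. TET2 held 8, 5 and 4 positions and H2B S112GlcNAc 6, 6 and 11 at 37462001, 37468001 and 37159001. Bin 37159001 is 1 of 5 bins with 6 OGT positions, beside those at 37646001, 37881001, 37892001 and 37913001. In the bin at 37881001, picked from these after its values were seen, H2B S112GlcNAc held 3 positions, 1.91-fold over its mean, and TET2 10 positions.

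The high bins of the antibodies overlapped in part, above the share over all bins most clearly for TET2 and H2B S112GlcNAc. Of the 48 high TET2 bins 25 were also high for H2B S112GlcNAc, which is 52.1% of the TET2 bins (37.2 to 66.7) and 64.1% of the 39 H2B S112GlcNAc bins (47.2 to 78.8). In the flanks the same shares were 21.8% and 30.8%, and over all bins 29.5% and 41.4%. TET2 and OGT shared 17 high bins, 35.4% of the TET2 (22.2 to 50.5) and 47.2% of the OGT bins (30.4 to 64.5). In the flanks these shares were 20.0% and 26.2%, and over all bins 28.3% and 31.1%. OGT and H2B S112GlcNAc shared 11, 30.6% and 28.2% of their bins, against 9.52% and 10.3% in the flanks and 23.1% and 29.6% over all bins. With the same fold asked of each library, TET2 and OGT shared 27.8% of the OGT bins, against 16.7% in the flanks and 19.9% over all bins.

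Without a call in the second library, its level was still raised at the high bins of the first. At the high bins of TET2, OGT was at 4.29 times its library mean and H2B S112GlcNAc at 4.45 times. Over the bins that were neither high for TET2 nor next to such a bin, OGT was at 0.885 and H2B S112GlcNAc at 0.923, so the ratios were 4.84 (4.01 to 5.81) and 4.82 (4.26 to 5.45). In the flanks these ratios were 2.59 (2.15 to 3.10) and 2.21 (1.93 to 2.52), and over all bins outside extreme bins 4.05 and 3.66. At least 3 H2B S112GlcNAc positions were found in 46 of the 48 bins, 95.8% (85.7 to 99.5), against 19.6% of the other bins of the interval. At high TET2 bins of the flanks this share was 76.4%, against 34.5% of the other flank bins. Over all bins outside extreme bins the shares were 79.0% and 19.1%.

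At the 36 high OGT bins TET2 was 4.73 times (4.08 to 5.47) and H2B S112GlcNAc 3.49 times (2.99 to 4.05) as dense as over the other bins. The flanks, with their 1 extreme bin kept, gave 2.37 and 1.71, and all bins outside extreme bins 4.01 and 3.11. At the 39 high H2B S112GlcNAc bins the ratio was 5.20 for TET2 (4.53 to 5.96) and 3.96 for OGT (3.20 to 4.87). The flanks gave 2.59 and 2.07, and all bins outside extreme bins 4.87 and 4.05. In each of the 6 combinations the interval gave a higher ratio than the flanks with no overlap of the 95% intervals. The other bins, by which the levels were divided, were denser in the flanks (OGT 1.36 against 0.885 for TET2 bins). At the high bins themselves, without the extreme flank bin, the flank levels were also lower, but for OGT the 95% intervals overlapped. At TET2 bins OGT was at 4.29 (3.63 to 5.03) against 3.18 (2.65 to 3.78). At H2B S112GlcNAc bins OGT was at 3.81 (3.13 to 4.59) against 2.47 (1.92 to 3.13). For the other combinations they did not overlap. Set against all bins outside extreme bins, the ratios were closer. The genome value lay below the 95% interval for H2B S112GlcNAc at TET2 bins and for TET2 at OGT bins, and inside it for the other 4 combinations.

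The relation was graded. In the 325 bins without a TET2 position, OGT was at 0.587 times its mean (0.494 to 0.692) and H2B S112GlcNAc at 0.626 (0.559 to 0.699). In the 132 bins with 2 TET2 positions they were at 1.07 and 1.12, in the 145 bins with 3 to 5 at 1.94 (1.68 to 2.22) and 2.00 (1.82 to 2.20), and in the 48 bins with 6 or more at 4.29 (3.63 to 5.03) and 4.45 (3.99 to 4.95). Grouping the bins by OGT or by H2B S112GlcNAc counts gave the same order. The group of 6 or more OGT positions holds 9 bins, in which TET2 was at 7.50 (6.01 to 9.25) and H2B S112GlcNAc at 4.59 (3.54 to 5.85).

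**Figure D3:**
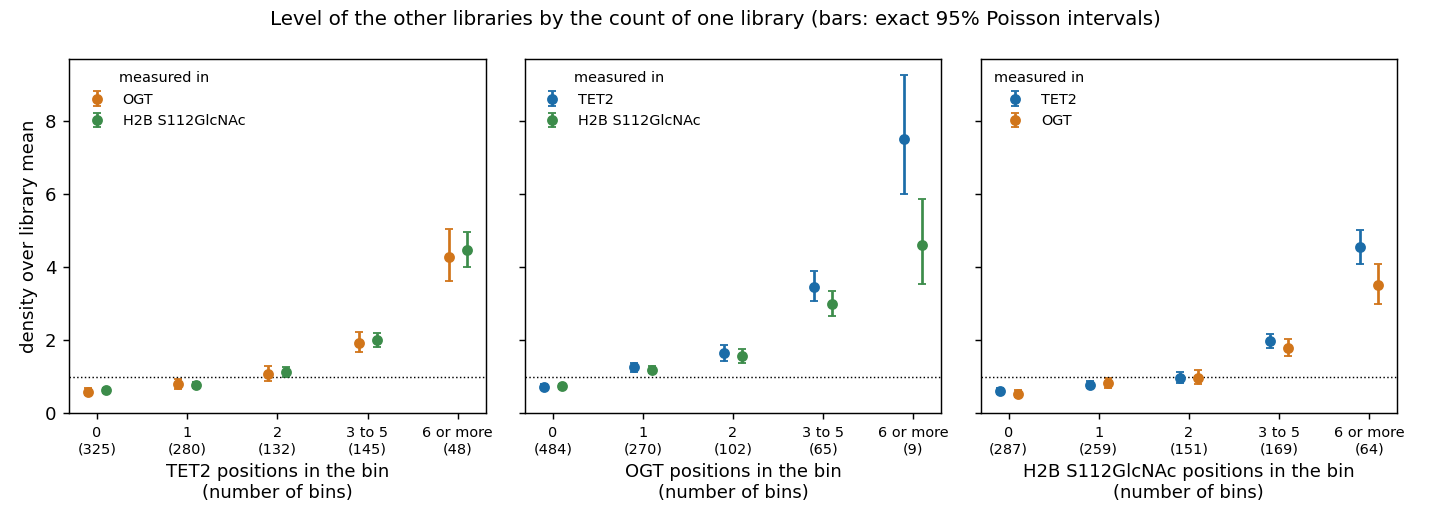
Density over the library mean of each of the other libraries (y axis) in bins grouped by the number of positions of 1 library (x axis, with the number of bins in brackets), with 1 panel per grouping library. Bars are exact 95% Poisson intervals and the dotted line is the library mean. Every panel climbs from below the mean in empty bins to at least 3.51 times the mean in bins with 6 or more positions.

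Over the 930 bins, Pearson's r of log2(count + 1) was 0.504 between TET2 and H2B S112GlcNAc, 0.446 between TET2 and OGT, and 0.414 between OGT and H2B S112GlcNAc. For these pairs Spearman's rho was 0.441, 0.383 and 0.363. Over the 1000 flank bins r was 0.347, 0.286 and 0.281, and over all bins 0.384, 0.322 and 0.314. These are descriptions over neighbouring bins that share local read density and, between libraries, base composition and mappability. Among the 2715 tiles of 930 kb the interval had a higher r than 99.4%, 99.4% and 99.2%, where the median tile had 0.233, 0.197 and 0.187. The variance of the bin counts over their mean also ranked high, at 2.86 in TET2, 1.70 in OGT and 2.62 in H2B S112GlcNAc, above 92.1%, 89.4% and 95% of tiles. With the Poisson counting variance taken out of each library, the correlation of the counts was 0.991 between TET2 and H2B S112GlcNAc, 1.05 between TET2 and OGT and 0.952 between OGT and H2B S112GlcNAc. The flanks gave 0.858, 0.787 and 0.892 by this measure, all bins 0.984, 0.962 and 0.968, and all bins outside extreme bins 0.929, 0.753 and 0.783. By this measure the interval stood above its flanks for each pair, and close to all bins while extreme bins were kept. No interval was computed for it, and 1.05 exceeds the limit of a correlation, so these differences are uncertain.

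The high bins of the interval came in groups, at spacings like those of the flanks. The 80 bins high in any library formed 62 blocks of touching bins, with a median of 7 kb between the centres of neighbouring blocks. The left flank had 34 blocks at a median of 5.5 kb and the right flank 52 at 6 kb, which is 1 block per 14.7 and 9.62 kb, against 1 per 15.0 kb in the interval. At the left end, 14 blocks stood between 37080001 and 37198000, with a median spacing of 7 kb and a range of 4 to 16 kb. Further groups were 7 blocks from 37456001 to 37517000 (median 10.8 kb), 5 from 37573001 to 37610000 (7.75 kb), 7 from 37639001 to 37682000 (7 kb) and 4 from 37834001 to 37856000 (7 kb). Between 37715001 and 37791000 stood 2 pairs of blocks, 20 and 23 kb apart. At the right end 19 blocks stood between 37881001 and 38005000, with a median spacing of 4.75 kb and a range of 2 to 25 kb. The groups are parted by at least 25 kb without a high bin, a limit chosen after seeing the data that also caps the spacing within a group. The interval had 9 such gaps, the left flank 3 and the right flank 2.

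The longest such gap was 151 kb, from 37305001 to 37456000, where TET2 was at 0.786, OGT at 0.631 and H2B S112GlcNAc at 0.707 times the library mean. Gaps of 53 and 51 kb lay on either side of a single bin high for OGT at 37251001 to 37252000, and they were followed by a lone pair of bins, 37303001 to 37305000. That pair held 17 TET2, 4 OGT and 17 H2B S112GlcNAc positions, which is 6.60, 2.72 and 5.41 times the library means. The next longest gap, of 56 kb from 37517001, was at 0.859 (TET2), 0.584 (OGT) and 0.818 (H2B S112GlcNAc) times the library mean.

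Around the high bins the other libraries dipped at 3 kb, in the sense that they were higher again farther out. At 3 kb from the high TET2 bins, OGT was at 0.795 times its mean (0.600 to 1.03) and H2B S112GlcNAc at 0.927 (0.780 to 1.09). At 6 and 7 kb they were at 1.51 (1.32 to 1.73) and 1.74 (1.59 to 1.89). From the high OGT bins TET2 was at 1.03 (0.838 to 1.26) at 3 kb and 1.88 (1.68 to 2.08) at 6 and 7 kb, and H2B S112GlcNAc at 0.963 (0.790 to 1.16) and 1.83 (1.66 to 2.01). From the high H2B S112GlcNAc bins TET2 was at 0.726 (0.569 to 0.913) and 1.60 (1.43 to 1.78), and OGT at 0.594 (0.411 to 0.830) and 1.45 (1.24 to 1.69). Bins neither high nor next to a high bin were at 0.885 (OGT) and 0.923 (H2B S112GlcNAc) for TET2 bins. For OGT bins they were at 1.02 (TET2) and 1.01 (H2B S112GlcNAc), so the levels at 3 kb from TET2 and OGT bins were near these. For H2B S112GlcNAc bins they were at 1.01 (TET2) and 0.961 (OGT), above the levels at 3 kb.

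The level at 6 and 7 kb was above that at 3 kb in 6 of 6 combinations, with no overlap of the 95% intervals. At 10 kb the levels were 1.34 to 1.68, near those at 6 and 7 kb, and TET2 from the high H2B S112GlcNAc bins stood higher at 10 kb (1.68) than at 6 and 7 kb, so the profile shows a dip and no peak at 1 spacing. Around high bins of the flanks the levels were 1.55 to 2.13 at 3 kb and 1.71 to 1.97 at 6 and 7 kb. Around high bins of the whole genome outside extreme bins they were 1.81 to 2.21 and 1.78 to 2.14, so neither showed the dip. The distances of 3, 6 and 7 kb were picked after seeing the profile, and bins near several high bins were counted more than once, which makes these intervals too narrow.

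**Figure D4:**
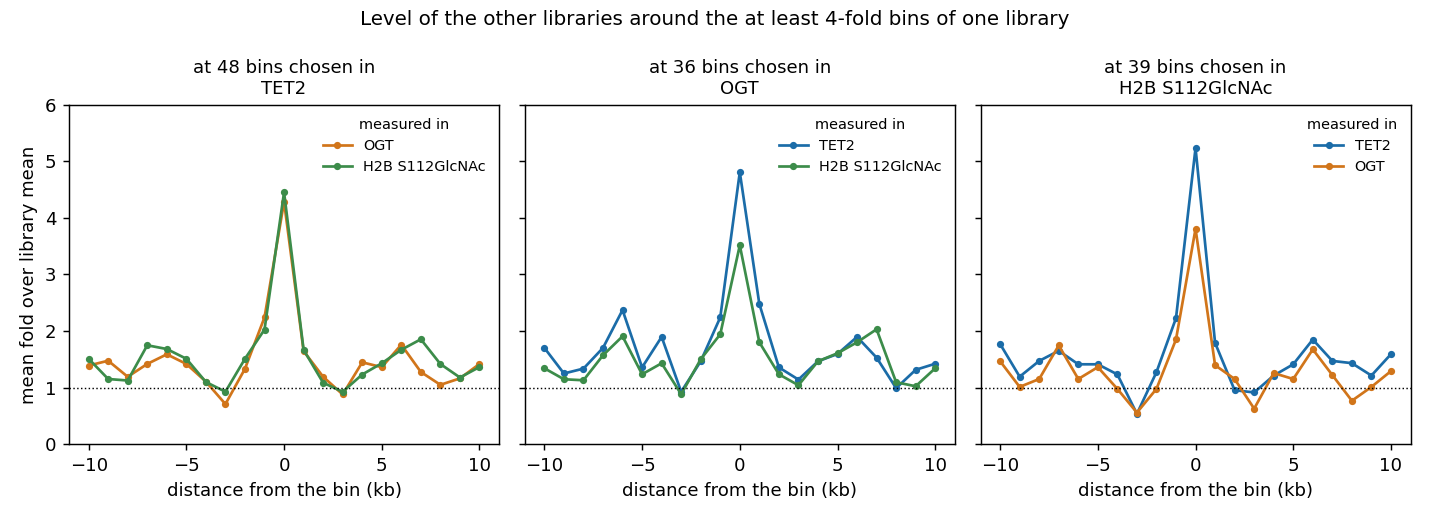
Mean fold over the library mean of the other libraries (y axis) at 1 kb steps from the high bins of 1 library (x axis, distance in kb), with 1 panel per library in which bins were chosen. The dotted line is the library mean. Each curve peaks at the chosen bin, at 3.52 to 5.23 times the mean, falls to about the mean or below at 3 kb and lies higher again at 6 to 7 kb.

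Scaled to the library totals, the antibodies stood close to their genome-wide proportion over the interval. The ratio over the interval was 1.10 for TET2 over OGT (1.01 to 1.20), 1.07 for TET2 over H2B S112GlcNAc (0.995 to 1.15) and 0.969 for OGT over H2B S112GlcNAc (0.888 to 1.06). Scaled by the median of 10 kb bins instead, TET2 over H2B S112GlcNAc was 1.14 (1.06 to 1.22), an interval that leaves out 1. By this scaling TET2 over OGT was 1.16 (1.06 to 1.27) and OGT over H2B S112GlcNAc 0.980 (0.899 to 1.07). In the flanks the ratios were 1.04 (0.968 to 1.12), 1.07 (1.01 to 1.14) and 1.03 (0.957 to 1.10). By stretch the 95% interval left out 1 in 2 of 30 ratios, both in the ninth stretch, 37824001 to 37917000. That stretch held 260 TET2, 99 OGT and 253 H2B S112GlcNAc positions, so TET2 over OGT was 1.5 (1.18 to 1.91) and TET2 over H2B S112GlcNAc 1.25 (1.05 to 1.5). The intervals are not adjusted for the number of stretches and pairs. Of the 5 highest TET2 bins of the whole interval, those at 37851001, 37892001 and 37913001 lie in this stretch.

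Bin 37665001 to 37666000, outside that stretch, held no OGT position beside 10 TET2 and 13 H2B S112GlcNAc positions. A count of 0 allows OGT up to 5.02 times its mean there, by the exact 95% interval. The 95% interval of TET2 over OGT began at 1.28, and that of OGT over H2B S112GlcNAc ended at 0.703. The bin was listed for its H2B S112GlcNAc count and singled out for its OGT count after the values were seen, so these intervals are descriptions.

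Under the rule for narrow enriched regions the interval held 13 TET2 regions, 1 OGT region and 11 H2B S112GlcNAc regions. The rule sets windows of 500 bp against whichever is largest of the genome mean and 2 local means, with a Poisson tail adjusted over the genome under 0.01 and at least 4-fold. Over the genome 0.162%, 0.0304% and 0.044% of windows passed it, and 930 kb held 3.51, 0.661 and 1.01 regions on average. The flanks together held 8, 2 and 1 regions. With the deeper libraries thinned to the OGT depth, 3 TET2 and 2 H2B S112GlcNAc regions were left beside the 1 OGT region.

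The TET2 region with the most positions, 37912751 to 37913500, held 16 TET2, 5 OGT and 7 H2B S112GlcNAc positions, which is 16.6, 9.08 and 5.94 times the library means. The next, 37881501 to 37882250, held 15, 5 and 4, and 37981751 to 37982500 held 14, 6 and 8. The OGT region, 37468501 to 37469000, was 19.1-fold over the largest of its background means and merged with an H2B S112GlcNAc region into 37468501 to 37469500, which held 8 TET2, 10 OGT and 13 H2B S112GlcNAc positions. The H2B S112GlcNAc regions with the highest fold over the largest of their background means, 12.7 each, were 37608751 to 37609500 and 37639001 to 37639750, where H2B S112GlcNAc held 12 positions each beside 3 and 6 TET2 positions and 1 and 2 OGT positions. One region was called for TET2 and for H2B S112GlcNAc, at 37665501 to 37666250, where 11 TET2, 0 OGT and 14 H2B S112GlcNAc positions lay.

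By call, TET2 and H2B S112GlcNAc thus shared 1 of 13 TET2 regions (7.69%) and 1 of 11 H2B S112GlcNAc regions (9.09%). The 1 OGT region overlapped an H2B S112GlcNAc region and no TET2 region. Shares of overlapping regions in the flanks or the genome are not given here, so these cannot be called low or high. Pooled over the regions of a library, the other libraries were also dense, though not in every single region. At the 13 TET2 regions H2B S112GlcNAc was at 6.36 times its mean, and 6.09 times (4.52 to 8.17) as dense as 2 to 5 kb away. OGT was at 5.45 times its mean there, a ratio of 4.73 (2.96 to 7.38). At the 11 H2B S112GlcNAc regions TET2 was at 7.28 times its mean, a ratio of 8.98 (6.25 to 12.9), and OGT at 5.45 times, a ratio of 9.10 (5.15 to 16.0). Every TET2 region held an H2B S112GlcNAc position and every H2B S112GlcNAc region a TET2 position, while 1 of the 13 and 2 of the 11 held no OGT position. Scaled to library totals, TET2 over H2B S112GlcNAc was 9.76 (1.31 to 433) at the TET2 region starting at 37153251. It was 4.58 (1.46 to 18.9) at 37881501 and 2.79 (1.09 to 8.02) at 37912751. At the other called regions the interval of this ratio included 1. These 3 regions were called on their TET2 counts, so the ratios are descriptions.

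The remaining called regions are given with the range of their counts. For TET2 these were the regions starting at 37121251, 37153251, 37172001, 37303251, 37456001, 37495251, 37524751, 37679751 and 37851001, each 500 or 750 bp long with 7 to 11 TET2, 1 to 3 OGT and 1 to 10 H2B S112GlcNAc positions. For H2B S112GlcNAc they were the regions starting at 37091501, 37516501, 37573251, 37582751, 37681251, 37715751 and 37841501, each 500 bp long with 8 to 11 H2B S112GlcNAc, 3 to 7 TET2 and 0 to 6 OGT positions.

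In most of the high bins measured, minus-strand ends lay to the right of plus-strand ends. Bins were filled after ends were moved 100 bp by strand, which can by itself give this order. No other bins were measured, so the order was not tested as a mark of fragments. In the 32 high TET2 bins that held at least 3 positions per strand, the median minus-strand end lay 146 bp (median over bins) to the right of the median plus-strand end, and it lay to the right in 25 of the 32. For H2B S112GlcNAc the median was 145 bp, to the right in 28 of 32 bins, and for OGT 150 bp, in 5 of 6 bins. Single bins ranged from -252 to 680 bp, so the medians of the libraries cannot be told apart. Few exact positions were shared between libraries, namely 8 for TET2 and OGT, 5 for TET2 and H2B S112GlcNAc and 2 for OGT and H2B S112GlcNAc. As a share of the smaller library these are 1.05%, 0.339% and 0.262%, against 2.08%, 1.64% and 2.15% over the genome.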

How the data were processed

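Chromatin immunoprecipitation and sequencing was done on mouse ES cells with 1 library for each of 3 antibodies (TET2, OGT, H2B S112GlcNAc). The deposited files list aligned reads of 44 bp, 1 per line, and the deposited score had 1 value throughout and was not used. The submitters' processing notes name mm9, CASAVA 1.4 and Bowtie 0.12.2 without saying what each did, and for repeated or multiply matching reads the handling was not given in the sources used here. In the OGT file, chromosomes are named by sequence identifiers of the same assembly.

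Read ends at 1 position and strand were counted once and moved by 100 bp with Python 3.11.15, numpy 2.4.6 and scipy 1.17.1. Library means were taken over the 10 kb stretches with a read in any library. Enriched windows of 500 bp, stepped by 250 bp, were compared with the largest of 3 means, over the genome and over the 10 and 50 kb around the window, leaving out the window itself and its adjoining 500 bp, with Benjamini-Hochberg adjustment over all windows, and touching windows were merged. Intervals are exact (Poisson for densities, Clopper-Pearson for shares and ratios) and cover counting error only, since each antibody had 1 library. With every read kept, they treat repeats as independent, which PCR copies are not. Named bins are those high in all 3 libraries and the 5 highest per library, ties taken by coordinate, and all called regions are listed. Members, lists and rules were chosen with earlier results of these data known. Alternatives kept every read, used no shift, drew libraries down, left out extreme bins, or changed flanks, bin size, fold, tail or scaling. No sequence or mm9 annotation was used here, so promoters were not analysed.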

Additional observations from a re-analysis of the deposited data

How the results depend on the processing

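No paired analysis was possible because there was a single library per antibody. Of 123 alternative values of the main results 94 stayed within 1.5 times (counts), 5 points (ranks among tiles) or the 95% interval (other values), 29 moved and none reversed. Some of the 94 were bound to stay, since drawing down and the same-fold setting leave the OGT counts as they were. Leaving out extreme bins likewise left r unchanged, as the interval holds none. All 126 alternative folds of named bins stayed within their intervals. For TET2, OGT and H2B S112GlcNAc, keeping every read put the density over the library mean at 1.12, 1.02 and 1.05 and called 2 OGT regions. Flanks of 250 kb gave 0.876 for TET2 and 0.840 for OGT. High bins numbered 9, 9 and 2 at 8-fold, 84, 18 and 104 in bins of 500 bp, and 25 for TET2 and 21 for H2B S112GlcNAc with the same fold asked of each library, where 27.8% of OGT bins were shared with TET2. At 8-fold, 0% of bins were shared between H2B S112GlcNAc and either other library. With 2 H2B S112GlcNAc bins the 95% interval of their shared part runs from 0 to 84.2%, so this says little about sharing. Shares over all bins at 8-fold are not given here. Drawn down, r was 0.432 and the shared part of H2B S112GlcNAc bins 45.7% for TET2 and H2B S112GlcNAc, and 3 TET2 and 2 H2B S112GlcNAc regions were called. With the tail of 1e-05, 3, 0 and 0 regions were called. TET2 over H2B S112GlcNAc, 1.07 (0.995 to 1.15), was 1.14 (1.06 to 1.22) scaled by the median of 10 kb bins, which leaves out 1, and 1.07 with every read kept, with an interval that starts just above 1. In 5 kb bins r was 0.594 for TET2 and OGT, 0.709 for TET2 and H2B S112GlcNAc and 0.547 for OGT and H2B S112GlcNAc. A higher fold or a smaller tail lowers counts by construction, and for the other moves the cause was not tested. The ranks of r among tiles, the same-fold setting and the folds of named bins were added after seeing the data. The low depth limits single bins most, where 1 OGT position is 1.36 times the library mean.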
